A study of Homo sapiens with 8 samples.

Results

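The genes described here encode the proteins of the cytoplasmic ribosome and their close relatives. They were chosen by symbol, as RPL or RPS followed by a number and at most a short suffix, and each gene was represented by its probe set with the highest mean over the 8 arrays. Of the 14884 genes that carried a symbol, 52 were members, 34 of the large subunit (RPL) and 18 of the small subunit (RPS). Their mRNA levels were measured on Affymetrix arrays in CCRF-CEM and HPB-ALL, 2 established human cell lines of T cell acute lymphoblastic leukaemia (T-ALL). In each line there was 1 array of cells with the short hairpin RNA shTOX-1, 1 with shTOX-2, both directed against the transcription factor TOX, 1 with a scramble hairpin and 1 of untransduced cells. Transduced cells were selected with puromycin and kept for at least 2 weeks, so the untransduced arrays lack the virus and the selection as well as a hairpin. Each construct has 1 array in each line, and nothing in the labels says that arrays came from separate cultures. The spread behind every p-value is therefore that of these 8 arrays, and it may be partly technical.

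A ribosome is built from a large and a small subunit, each a scaffold of ribosomal RNA covered by proteins that are mostly present in a single copy. Dividing lymphoblasts make ribosomes at a high rate, and the mRNAs of the ribosomal proteins are among the most abundant in the cell. These mRNAs typically begin with a C followed by a run of pyrimidines, the terminal oligopyrimidine (TOP) motif, through which the kinase mTOR and the RNA-binding protein LARP1 control their translation. In T-ALL, RPL10 and RPL22 are known targets of mutation or deletion, and inherited loss of many ribosomal protein genes causes Diamond-Blackfan anaemia. A few genes have a relative that can take the same place in the ribosome. RPL39L and RPL10L are best known from the testis, and RPL3L from heart and skeletal muscle.

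The annotated starts of these genes show that most members carry the shared TOP start and some do not, canonical genes among them. The 30 bases shown run from 10 before the start to 20 from it (RefSeq, GRCh38.p14), and capitals mark a C followed by at least 4 pyrimidines that begins within 5 bases of the start. The first 8 pair the relatives that recur below with their canonical partners, and RPL28 and RPL39 are the canonical genes that passed a test.
RPL26: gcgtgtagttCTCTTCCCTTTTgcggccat
RPL26L1: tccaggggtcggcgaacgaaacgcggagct
RPL22: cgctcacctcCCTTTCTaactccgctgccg
RPL22L1: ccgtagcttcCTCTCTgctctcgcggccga
RPS27: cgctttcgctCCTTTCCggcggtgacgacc
RPS27L: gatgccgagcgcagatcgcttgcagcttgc
RPL10: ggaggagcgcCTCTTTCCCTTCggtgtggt
RPL10L: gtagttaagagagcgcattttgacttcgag
RPL39: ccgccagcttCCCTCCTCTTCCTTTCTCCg
RPL28: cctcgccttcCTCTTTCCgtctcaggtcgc
The windows lie at chr17:8383174-8383203 (RPL26, minus strand), chr5:172958719-172958748 (RPL26L1, plus), chr1:6199576-6199605 (RPL22, minus), chr3:170870176-170870205 (RPL22L1, minus), chr1:153990752-153990781 (RPS27, plus), chr15:63157458-63157487 (RPS27L, minus), chrX:154398367-154398396 (RPL10, plus), chr14:46651762-46651791 (RPL10L, minus), chrX:119791611-119791640 (RPL39, minus) and chr19:55385922-55385951 (RPL28, plus).

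Of the 47 members found in the promoter table, 36 (76.6%) had such a run within 5 bases of an annotated start. Over all 27305 genes of that table the share was 25.2%, and over the 6988 tested genes found in it 29.2%. With the run required to begin exactly at the start, the shares were 66.0% of members, 5.14% of all genes and 7.11% of tested genes. Among the 7 relatives whose symbol ends in L or L1, 5 were in the table and only RPL22L1 had the run. Among the 42 other members in the table, 35 (83.3%) had it. RPL6, RPL9, RPL17, RPL27, RPS15, RPS26 and RPS29 did not. Of the 74 mitochondrial ribosomal protein genes in the table, which belong to another ribosome, 16 (21.6%) had it. A match describes these letters only, and genes with several annotated starts counted once, by any of them.

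Member signals ran from 3.40 to 12.97 on the log2 scale as means over the 8 arrays. The 5 with the highest signal were RPL10 (12.97), which completes the tRNA sites of the large subunit, RPL41 (12.93), RPS28 (12.64), RPL19 (12.28) and RPL12 (11.91), a protein at the base of the stalk. The 5 with the lowest were RPL10L (3.40), RPL22 (5.24), RPL3L (5.51), RPS27L (5.55), a p53 target, and RPL26L1 (6.01). Probe sets differ in their probes, so this order does not rank the mRNAs. Genes with a mean at or above log2 5.18 were tested, 8930 in all, and 51 of the 52 members were among them. RPL10L was the exception, at 3.07 to 3.74 in all 8 arrays. RPL22, a canonical and broadly used protein, read only 5.02 to 5.50, on both sides of that level. Whether its mRNA is low or its probe set reads poorly was not tested. The brightest members may also be limited at the upper end, since the highest value of any probe set was 13.76 to 13.87 per array.

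Ribosomal protein genes have many near-identical processed pseudogenes, and signal from such copies cannot be told apart here. Probe sets of 45 members had all 6 of their nearest named neighbours, by probe set number, on the gene's own chromosome. For RPL10, RPL41, RPS28, RPL12, RPS27 and RPL31 none of the 6 was. The neighbours of the RPS28 set all lay on chromosome 11 and those of the RPS27 set on chromosome 12, while the genes are on chromosomes 19 and 1. For 4 members there was more than 1 probe set. The other RPL39 set behaved like the chosen one (r = 0.81 over the 8 arrays), whereas the 4 other RPL41 sets had r = -0.18 to -0.41 with theirs and the other sets of RPL19 and RPS18 had r = 0.32 and 0.11.

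As a group the members varied little between arrays. Their median SD over the 8 arrays was 0.169, beside 0.261 for all tested genes and 0.236 for the 2606 tested genes at or above the members' median signal. Single SDs ran from 0.053 for RPL41 to 0.477 for RPL26L1. The 5 most variable members were RPL26L1 (0.477), RPL39L (0.447), RPL14 (0.351), RPL32 (0.345) and RPS26 (0.328), so the leading places fell to relatives.

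Facts of the whole series bear on these values as follows. The array medians over all 53617 probe sets lay between 4.62 and 4.71, so a shift of the whole ribosomal protein pool together with all other mRNAs cannot be read from them. Arrays of the same line correlated at 0.949 to 0.985 across tested genes and arrays of different lines at 0.876 to 0.908. Of the 5 measured T cell markers, CD247, CD5, CD7 and LCK were above 5.18 in all 8 arrays and CD2 in 4 arrays. Of the 3 measured myeloid markers, 0 had a mean above it. Markers of other cells above that level on average were PAX5 (5.01 to 5.72), NCR1, NKG7 (7.31 to 8.99) and KRT8, and their part in the results was not tested. The target gene TOX had values of 10.65 (shTOX-1) and 9.86 (shTOX-2) in the CCRF-CEM hairpin arrays, against 11.03 in both CCRF-CEM controls. In the HPB-ALL hairpin arrays it had 10.16 and 8.75, against 10.59 with scramble and 10.64 untransduced.

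The comparison of the lines asked which ribosomal protein mRNAs distinguish CCRF-CEM from HPB-ALL whatever the construct. RPL26L1 was 1.65-fold and RPL39L 1.52-fold higher in CCRF-CEM, and RPL39, a small protein that lines the exit tunnel for the growing peptide, was 1.38-fold lower. RPL39 and its relative RPL39L thus differed in opposite directions. No other member passed. The 3 of 51 members called (5.88%), 2 higher and 1 lower, stood beside 27.4% of all tested genes called, 12.4% higher and 14.9% lower. An unadjusted p under 0.05 was found for 6 of 51 members, beside 38.9% of all tested genes.

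RPL26L1 read 6.65 with shTOX-1, 6.49 with shTOX-2, 6.42 with scramble and 5.92 untransduced in CCRF-CEM, against 5.90, 5.76, 5.70 and 5.24 in the same order in HPB-ALL. All 4 CCRF-CEM arrays were above all 4 HPB-ALL arrays, and in both lines the untransduced array was the lowest. The log2 difference was 0.72 ± 0.15 (standard error, here and below; limma, adjusted p = 0.00508). Its partner RPL26, which sits near the tunnel exit, read 8.90 to 9.19 in CCRF-CEM and 8.92 to 9.16 in HPB-ALL, with overlapping arrays.

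RPL39L read 7.02 with shTOX-1, 6.44 with shTOX-2, 6.83 with scramble and 6.05 untransduced in CCRF-CEM, against 5.97, 6.16, 6.07 and 5.72 in HPB-ALL. The untransduced CCRF-CEM array fell inside the HPB-ALL range and the other 3 lay above it. The difference was 0.60 ± 0.19 (limma, adjusted p = 0.0427), and it missed the threshold without any one of 5 arrays: 0.109 without CCRF-CEM scramble, 0.124 without CCRF-CEM shTOX-1, and 0.115, 0.0801 and 0.107 without HPB-ALL shTOX-1, shTOX-2 and untransduced.

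RPL39 read 8.83 and 8.60 with the hairpins shTOX-1 and shTOX-2, 8.88 with scramble and 9.26 untransduced in CCRF-CEM, against 9.29, 9.25, 9.52 and 9.36 in HPB-ALL. Only the untransduced CCRF-CEM array reached the HPB-ALL values. The difference was -0.46 ± 0.13 (limma, adjusted p = 0.0214). It was larger in the other RPL39 probe set, with means of 8.05 in CCRF-CEM and 8.67 in HPB-ALL. The adjusted p was 0.0596 without CCRF-CEM scramble, 0.0762 without CCRF-CEM shTOX-2, 0.0659 without HPB-ALL shTOX-1 and 0.0601 without HPB-ALL shTOX-2.

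**Figure D1:**
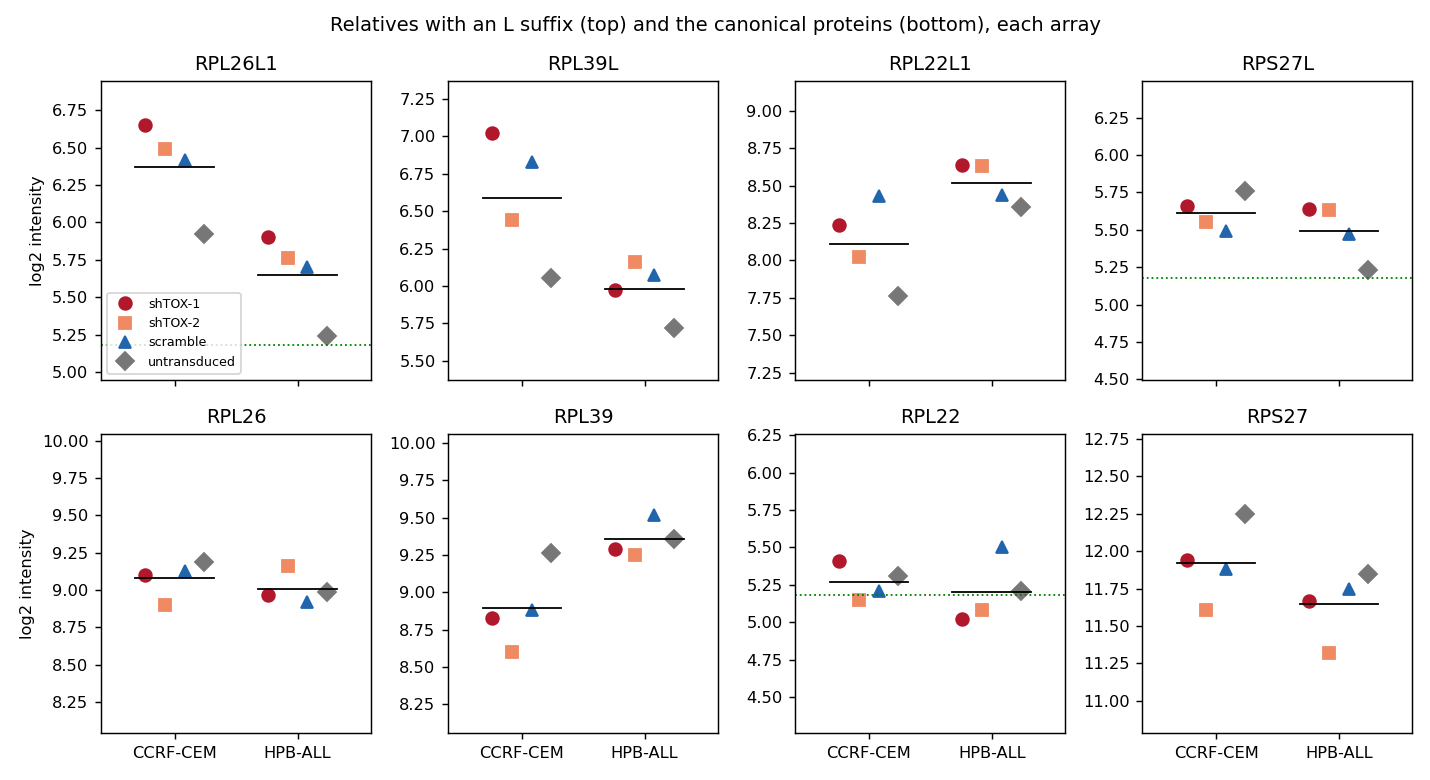
Log2 intensity of 4 relatives with an L suffix (top) and of their canonical partners (bottom) in each array, by line; bars are line means over 4 arrays, the dotted line marks the level of 5.18 used for testing, and every panel spans 2 log2 units. RPL26L1 and RPL39L lie higher in CCRF-CEM and RPL39 lies lower, while RPL26 overlaps between the lines.

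RPL22L1 and RPL8 came next by p. RPL22L1, whose mRNA rises in mouse cells that lack Rpl22, read 8.24, 8.02, 8.43 and 7.76 in CCRF-CEM (shTOX-1, shTOX-2, scramble, untransduced), against 8.64, 8.63, 8.44 and 8.36 in HPB-ALL. The difference of -0.41 ± 0.15 missed the threshold (adjusted p = 0.076) and passed without CCRF-CEM scramble (adjusted p = 0.00921). RPL8, a protein next to the peptidyl transferase centre, read 10.89 to 11.01 in CCRF-CEM and 11.11 to 11.27 in HPB-ALL, without overlap, a difference of -0.26 ± 0.10 (adjusted p = 0.0863). RPL10, altered in some T-ALL, read 12.96 to 13.15 in CCRF-CEM and 12.88 to 12.97 in HPB-ALL.

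Arrays of the lines did not overlap for 5 of 51 members (9.80%), beside 27% of all tested genes. They were RPL26L1, RPL27, RPL41 and RPS23 on the higher side, beside 12.8%, and RPL8 on the lower side, beside 14.2%. For RPL41 only the chosen probe set was higher in CCRF-CEM, by 0.08. Its other sets were all lower there, with differences of -0.17, -0.42, -0.25 and -0.28. RPS23, part of the decoding centre, read 10.38 to 10.67 in CCRF-CEM and 10.03 to 10.35 in HPB-ALL. Over all members the median difference was -0.0514, with 22 positive and 29 negative, and over all tested genes it was -0.00562. The 15 members that the reference annotation lists under a Diamond-Blackfan anaemia synonym, a group picked after the values were seen, had differences between -0.28 and 0.31.

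**Figure D2:**
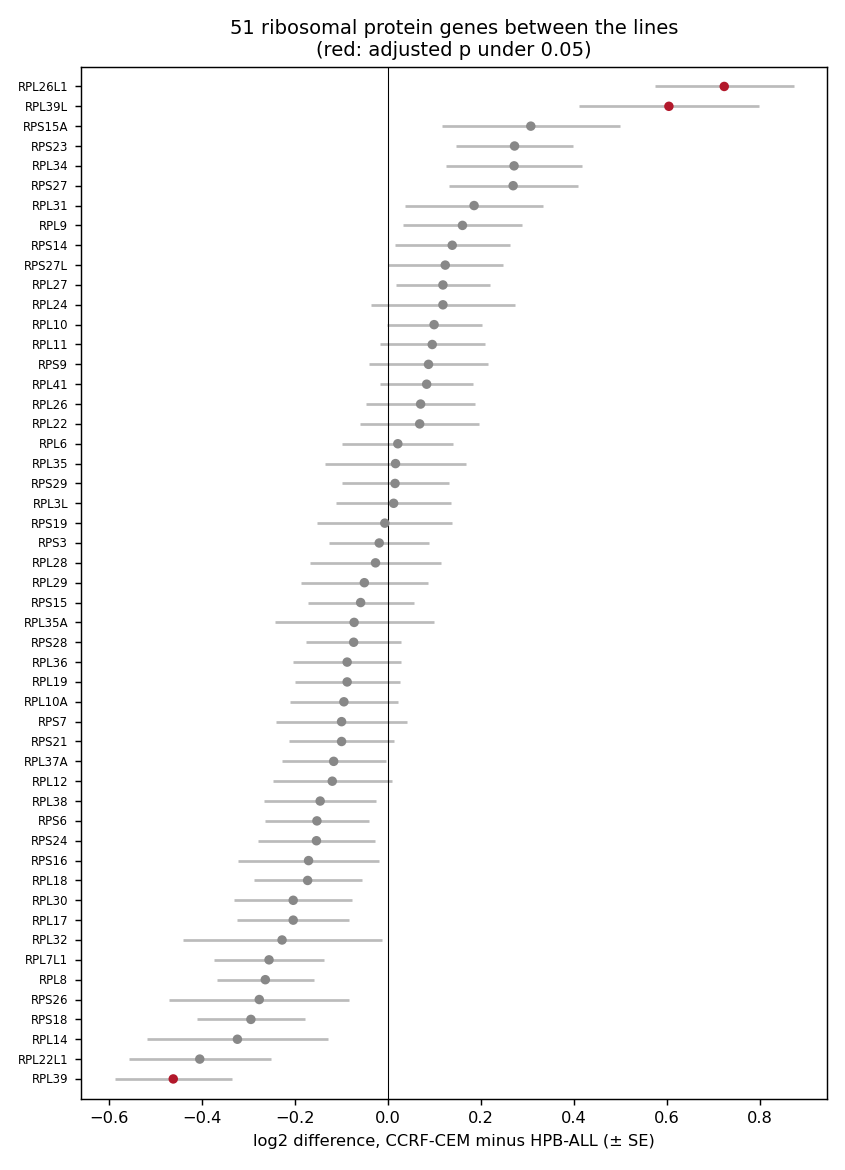
Log2 difference between CCRF-CEM and HPB-ALL (4 arrays each) for the 51 tested members, ordered by size, with standard errors; red points have an adjusted p under 0.05. Most members lie within 0.3 of 0, and RPL26L1, RPL39L and RPL39 are the 3 called.

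Other genes of the ribosome pathway were counted from lists. Of 23 tested assembly factors, 5 were lower in CCRF-CEM and 0 higher, beside 14.9% and 12.4% of all tested genes. Among them were HEATR1 (-0.53 ± 0.15), LTV1 (-0.53 ± 0.16), which acts in small subunit assembly, and HEATR3 (-0.51 ± 0.13), an import adaptor of ribosomal proteins. EIF4EBP1, the mTOR-controlled inhibitor of cap-dependent translation, was lower in CCRF-CEM (-0.60 ± 0.11, limma, adjusted p = 0.00304), as were EEF1D, an elongation factor subunit (-0.41 ± 0.13), and POLR1F of RNA polymerase I (-0.63 ± 0.18). The other 4 tested regulators of these mRNAs (EIF4E, EIF4EBP2, MTOR and MYC) were not called. Of 76 tested mitochondrial ribosomal protein genes, 8 were called higher and 6 lower, beside the same 12.4% and 14.9%.

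shTOX arrays were set against scramble, the control that shares transduction and selection. No member passed: 0 of 51 were called and 0 had an unadjusted p under 0.05, beside 0% of all tested genes called and 5.14% with an unadjusted p under 0.05 in limma. Differences ran from -0.40 to 0.19. The median was -0.0545 with 16 members positive and 35 negative, beside 0.016 over all tested genes, and it was -0.0269 with 21 positive after quantile normalization. The median was -0.00272 without the CCRF-CEM scramble array and -0.00479 without the CCRF-CEM shTOX-2 array. It was -0.0873 without HPB-ALL scramble, -0.0795 without HPB-ALL shTOX-1 and -0.0785 without HPB-ALL shTOX-2.

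RPS26, a small subunit protein that contacts the mRNA, had the smallest p. It read 7.41 and 7.29 with shTOX-1 and shTOX-2 in CCRF-CEM, against 8.13 with scramble and 7.41 untransduced, and 8.12 and 7.69 in HPB-ALL, against 7.92 and 7.61. Only the CCRF-CEM scramble array stood apart. The difference of -0.40 ± 0.19 (adjusted p = 0.93) was -0.0721 without that array and -0.724 without the HPB-ALL scramble array.

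RPL17, RPL26L1, RPS19 and RPS27L were each above scramble in all 4 shTOX arrays. RPL28, RPL37A, RPL39, RPS15, RPS28 and RPS29 were each below it in all 4. Neither pattern was counted over all tested genes. RPL11, which binds and inhibits MDM2, was also below scramble in all 4. It read 9.68 and 9.66 in the CCRF-CEM shTOX arrays and 9.70 and 9.63 in those of HPB-ALL, against 9.91 and 9.79 in the scramble arrays. The untransduced arrays, at 9.77 and 9.52, were also below scramble, and the difference of -0.18 ± 0.12 had an adjusted p of 0.933. RPL28 (-0.18 ± 0.13), RPS16 (-0.24 ± 0.17) and RPS23 (0.18 ± 0.13) completed the 5 smallest p.

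**Figure D3:**
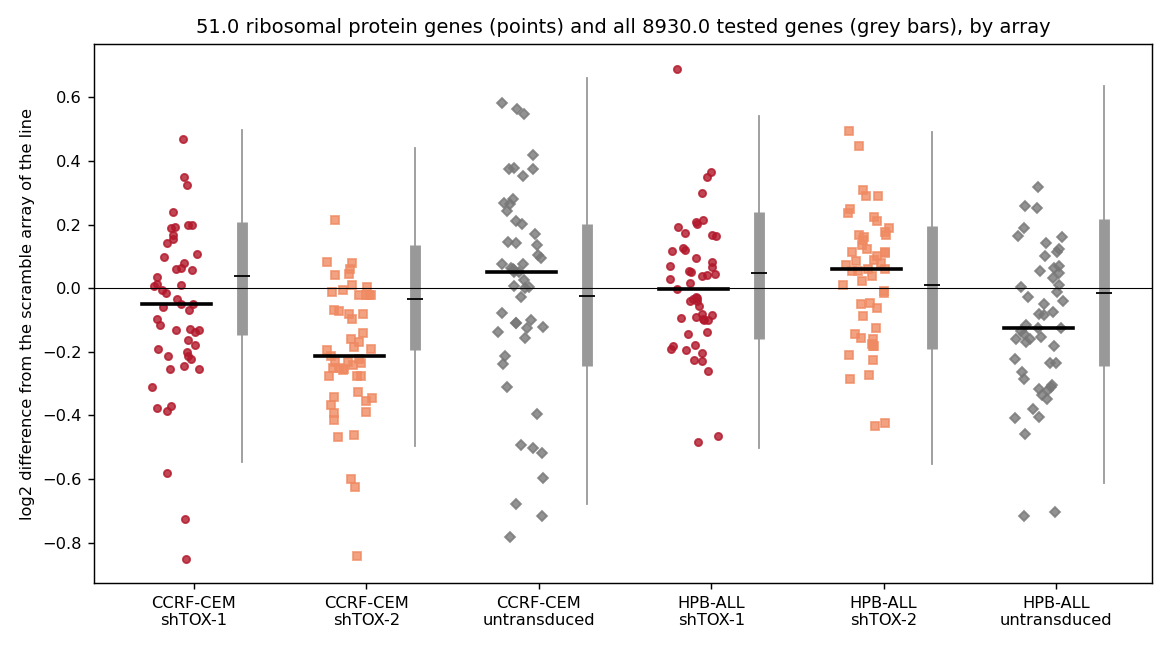
Log2 difference of each of the 51 tested members (points; thick bar, median) from the scramble array of its line, in the other 6 arrays; thick grey bars give the interquartile range of all tested genes and thin ones the range from their 5th to their 95th percentile. Medians of members run from -0.214 in CCRF-CEM shTOX-2 to 0.06 in HPB-ALL shTOX-2.

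By array, the members' median relative to scramble was -0.05 (shTOX-1), -0.214 (shTOX-2) and 0.051 (untransduced) for CCRF-CEM cells. For HPB-ALL cells it was -0.003, 0.06 and -0.124 in the same order. The CCRF-CEM shTOX-2 array was the lowest, with 8 of 51 members above scramble, and the medians of all tested genes lay between -0.033 and 0.048 in these arrays. Large and small subunit members moved alike there, with medians of -0.231 and -0.191.

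Against both controls pooled, 0 of 51 members were called, beside 0% of all tested genes. An unadjusted p under 0.05 was found for 3 members, beside 14.3% of all tested genes: RPL28 (-0.38 ± 0.14), RPL26L1 (0.38 ± 0.15) and RPL37A (-0.26 ± 0.11), with adjusted p of 0.309, 0.319 and 0.341 in limma. RPS27 (-0.30 ± 0.14) and RPL39 (-0.26 ± 0.13) followed. For 5 members (9.80%), beside 11.4% of all tested genes, the shTOX arrays were separate from the controls with a shared direction in the 2 lines. RPL26L1 was higher, beside 6.36% of all tested genes, and RPL28, RPL37A, RPL39 and RPS28 were lower, beside 4.99%. Without the untransduced arrays the differences of RPL28 and RPL26L1 were -0.179 and 0.146.

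The comparisons of shTOX and of scramble arrays with untransduced cells share the 2 untransduced arrays. Relative to untransduced cells, RPL26L1 was 1.54-fold higher and RPL28 1.49-fold lower in shTOX arrays, and these were the only 2 of 51 members called, beside 11.8% of all tested genes, 6.18% higher and 5.64% lower. An unadjusted p under 0.05 was found for 8 members, beside 29.1%. In the scramble arrays 0 members were called, beside 1.06% of all tested genes (0.582% higher, 0.482% lower), and 8 had an unadjusted p under 0.05 (15.7%), beside 17.5%.

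RPL28, a large subunit protein, read 7.94 (shTOX-1) and 7.87 (shTOX-2) in CCRF-CEM hairpin arrays and 8.01 and 8.05 in those of HPB-ALL, against 8.65 and 8.44 in the untransduced arrays. The scramble arrays read 8.10 and 8.19. Both untransduced arrays were above all others, and the scramble array was second in each line. The difference was -0.58 ± 0.13 for shTOX (limma, adjusted p = 0.0236) and -0.40 ± 0.15 for scramble (adjusted p = 0.214). The shTOX call was lost without CCRF-CEM shTOX-1 (0.0534), CCRF-CEM shTOX-2 (0.0568), the CCRF-CEM untransduced array (0.272) or the HPB-ALL untransduced array (0.0536).

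RPL26L1, with the values given above, differed by 0.62 ± 0.13 between shTOX and untransduced arrays (limma, adjusted p = 0.0164) and by 0.48 ± 0.14 between scramble and untransduced arrays (adjusted p = 0.131). All 3 transduced arrays were above the untransduced one in both lines. The shTOX call was lost without the untransduced array of CCRF-CEM (0.159) or of HPB-ALL (0.0837). The HPB-ALL untransduced value of 5.24 lay close to the level of 5.18 used for testing.

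RPL35A, a Diamond-Blackfan gene, read 8.38 and 8.55 with shTOX-1 and shTOX-2 in CCRF-CEM, 8.63 with scramble and 8.24 untransduced, and 8.62, 8.73, 8.72 and 8.01 in HPB-ALL. Differences from untransduced cells were 0.45 ± 0.14 for shTOX (adjusted p = 0.073) and 0.56 ± 0.17 for scramble (adjusted p = 0.126), and 0.246 and 0.353 without the HPB-ALL untransduced array. The shTOX difference passed (adjusted p = 0.0497) with the filter at the 60th percentile. RPL39L followed with 0.51 ± 0.18 and 0.56 ± 0.21. RPL37A was at -0.36 ± 0.12 for shTOX, and RPS19, the gene most often mutated in Diamond-Blackfan anaemia, at -0.41 ± 0.16 for scramble.

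**Figure D4:**
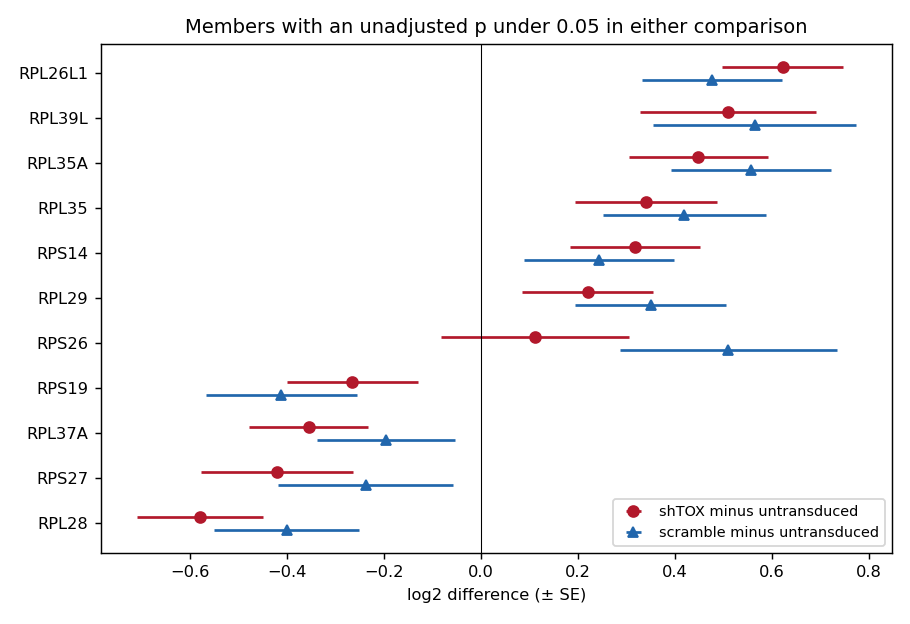
Log2 difference from the untransduced arrays, with standard errors, of shTOX (circles, 4 arrays) and scramble (triangles, 2 arrays) for members with an unadjusted p under 0.05 in either comparison; both share the 2 untransduced arrays. RPL26L1 and RPL28 are the members called, for shTOX.

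The 3 transduced arrays lay on the same side of the untransduced array, alike in both lines, for 19 of 51 members (37.3%), beside 37.2% of all tested genes. RPL22L1, RPL26L1, RPL29, RPL35, RPL35A, RPL39L, RPS14 and RPS9 were higher in transduced cells, beside 20.5% of all tested genes. RPL10, RPL10A, RPL17, RPL27, RPL28, RPL31, RPL37A, RPS18, RPS19, RPS23 and RPS27 were lower, beside 16.7%. The median over members was -0.0224 for shTOX and 0.00514 for scramble, and quantile normalization turned both (0.000662 and -0.000258), so no direction of the family can be given.

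The genes that make and regulate ribosomes were counted in the same arrays. Relative to untransduced cells, 4 of 23 assembly factors rose in shTOX arrays and 0 fell, beside 6.18% and 5.64% of all tested genes. Among them were RRP12 (0.70 ± 0.18), PNO1 (0.68 ± 0.17) and NCL, the nucleolar protein nucleolin (0.66 ± 0.15), with limma adjusted p of 0.0371, 0.0312 and 0.0235. In scramble arrays, against the same untransduced arrays, RRP12 differed by 0.44 ± 0.21, PNO1 by 0.46 ± 0.19 and NCL by 0.64 ± 0.17, none of them called. In shTOX against scramble arrays the differences were 0.27 ± 0.18, 0.23 ± 0.17 and 0.02 ± 0.15. The median over the 23 factors was 0.276 for shTOX and 0.118 for scramble against untransduced cells, and 0.188 for shTOX against scramble, with 0 called in the last 2 comparisons. Of 76 mitochondrial ribosomal protein genes, 14 rose and 0 fell in shTOX arrays against untransduced cells, beside the same 6.18% and 5.64%, with a median of 0.286. Their median was 0.183 for scramble against untransduced cells and 0.0885 for shTOX against scramble, with 0 called in both. Against untransduced cells, POLR1F rose in shTOX arrays (0.82 ± 0.16), and MDM4, a p53 inhibitor related to MDM2, fell (-1.14 ± 0.21, limma, adjusted p = 0.0125). FAU, which encodes a further small subunit protein as a fusion and lies outside the symbol rule, fell (-0.74 ± 0.19, adjusted p = 0.0368). The scramble arrays differed from untransduced cells by 0.57 ± 0.18 for POLR1F, -0.82 ± 0.24 for MDM4 and -0.45 ± 0.22 for FAU, none of them called. The differences of shTOX from scramble arrays were 0.25 ± 0.16, -0.32 ± 0.21 and -0.29 ± 0.19 in limma, with adjusted p of 0.93, 0.933 and 0.933. The difference between these lists and the cytoplasmic ribosomal proteins was not tested.

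The lines were also compared in how shTOX arrays differed from controls. The difference of the differences, CCRF-CEM minus HPB-ALL, was negative for 41 of 51 members with a median of -0.197, beside -0.0235 over all tested genes. No member passed (0 called, beside 0% of all tested genes, and 4 with an unadjusted p under 0.05, beside 4.59%), and the smallest adjusted p among members was 0.973 in limma. Quantile normalization shifted the median of all genes by over 0.1, to 0.0806, and that of the members was then -0.0775 with 36 negative. The members' median was -0.115 without both untransduced arrays. When single arrays were left out it ran from -0.264 (without CCRF-CEM scramble) to -0.129 (without CCRF-CEM shTOX-2). Assembly factors were negative for 20 of 23 (median -0.25) and mitochondrial ribosomal proteins for 55 of 76 (median -0.0938), with 0 called in either list.

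Of the 5 members with the smallest p, 4 belong to the large subunit, as do 33 of the 51 tested members. The median contrast was -0.184 for large and -0.2 for small subunit members. RPL14 read 7.68 and 7.59 with shTOX-1 and shTOX-2 in CCRF-CEM, against 8.05 with scramble and 7.74 untransduced. In HPB-ALL it read 8.55 and 8.31 with the hairpins, against 7.86 and 7.63. Both shTOX arrays were below both controls in CCRF-CEM and above both in HPB-ALL, and the contrast was -0.95 ± 0.26 (adjusted p = 0.973).

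RPL32 behaved alike, at 7.24 and 7.46 in CCRF-CEM shTOX arrays, against 8.09 and 7.49 in its scramble and untransduced arrays, and 8.05 and 8.04 in HPB-ALL, against 7.75 and 7.34. Its contrast was -0.94 ± 0.33. RPL34 read 8.36 and 8.48 in CCRF-CEM, against 8.95 and 9.05, and 8.47 and 8.51 in HPB-ALL, against 8.42 and 8.37, a contrast of -0.67 ± 0.21. RPL9 (-0.48 ± 0.21) and RPS16 (-0.55 ± 0.26) completed the 5 smallest p.

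The shTOX arrays lay wholly below the controls in CCRF-CEM and wholly above them in HPB-ALL for 7 members, RPL6, RPL9, RPL14, RPL18, RPL30, RPL32 and RPL34, and in the reverse way for 0. That is 13.7% of members, beside 5.16% of all tested genes in either arrangement, 2.56% in this one and 2.6% in the reverse. These genes share the arrays, so their count is not that of independent observations.

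**Figure D5:**
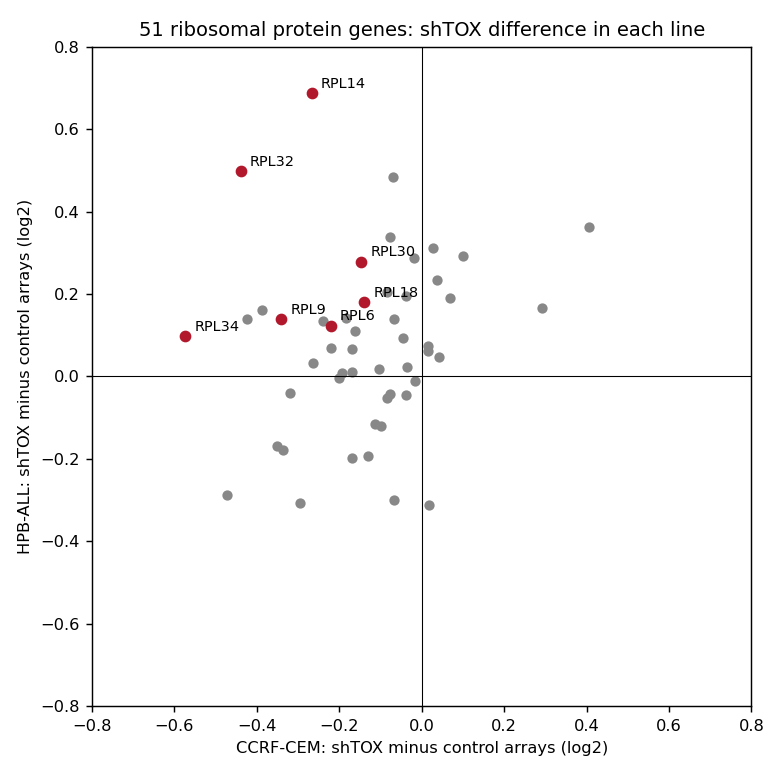
Difference of the shTOX arrays from the control arrays (2 against 2, log2) in CCRF-CEM (x axis) and HPB-ALL (y axis) for the 51 tested members. The 7 red members have arrays that do not overlap and lie in opposite directions in the lines, all of them lower in CCRF-CEM and higher in HPB-ALL.

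The hairpins were compared because shTOX-2 left less TOX than shTOX-1. For shTOX-2 against shTOX-1, 0 of 51 members were called, beside 0% of all tested genes, and 0 members had an unadjusted p under 0.05, beside 4.27%. In CCRF-CEM and HPB-ALL, RPS27 read 11.61 and 11.32 with shTOX-2, against 11.94 and 11.67 with shTOX-1 (-0.34 ± 0.17, adjusted p = 1 in limma). RPL31 read 6.41 and 6.36 against 6.95 and 6.56 (-0.37 ± 0.19), and RPL3L 5.71 and 5.67 against 5.36 and 5.38 (0.32 ± 0.15), close to the level used for testing. RPL7L1 (0.18 ± 0.16) and RPS21 (-0.20 ± 0.15) followed. The median over members was -0.0652 with 16 positive, beside -0.0419 over all tested genes. When arrays were centred on their medians, the members' median turned to 0.0388 with 36 positive. Centring moved the median of all genes alike, by over 0.1 to 0.0621, so the members were below it in both scalings. Without CCRF-CEM shTOX-2 the members' median was 0.0745, beside -0.0286 over all tested genes. Before centring, mitochondrial ribosomal proteins were negative for 65 of 76 (median -0.159), with 0 called, beside 5220 of all 8930 tested genes negative. This list was not summarized with centred arrays.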

How the data were processed

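Total RNA was labelled by the GeneChip WT Plus protocol, per the labels' protocols. The authors deposited a table with 1 intensity for each probe set on each array, and its range points to a log2 scale. How the authors corrected, summarized and normalized them is not given in the sources used here. Probe sets were named through the platform annotation: 16098 had 1 symbol, 0 had several and 37519 had none. All 52 members matched the reference annotation by Entrez identifier. A gene was tested if its mean signal reached the 40th percentile of genes. Models that include line were fitted to all 8 arrays (R 4.3.3, limma 3.58.1, eBayes without trend). For pooled controls and for the lines, the other term was shTOX or control. For scramble and untransduced cells it was the treatment, and for the hairpins it was shTOX-1, shTOX-2 or control. The difference of the shTOX differences used a mean per line and state. Standard errors from different models therefore rest on different residual spreads. Calls had a Benjamini-Hochberg adjusted p under 0.05 over all 8930 genes. Both lines have the same constructs, and only the replicate block alternative paired the arrays of the lines by construct. No 2 arrays were identical. Precision is limited by the number of arrays.

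Members, lists and tests were chosen with earlier results of these data known. Members were named in a comparison if called, up to 10 per direction, or among the 5 smallest p where fewer than 5 were called, and by signal, spread, relatives and known roles. Genes without a named probe set were not analysed here. Alternatives covered filter, probe sets, scaling, variance model, line term, replicate block and single arrays.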

Additional observations from a re-analysis of the deposited data

Results flagged for a closer look

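In 2 of 46 groups of 4 arrays of a line, 1 array stood far from the other 3, where chance gives about 5%. The 46 groups examined did not cover all 51 tested members in both lines. RPS26 read 8.13 in the CCRF-CEM scramble array, against 7.29 to 7.41 in the other CCRF-CEM arrays. In HPB-ALL, RPL35A read 8.01 in untransduced cells and 8.62 to 8.73 in the transduced cells.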

How the results depend on the processing

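The shTOX comparisons with scramble and with pooled controls called 0 members under all alternatives run. For pooled controls, the genes called were 0, and 16 in the replicate block (construct as a term shared by the lines), with 0 to 4 when single arrays were left out. For shTOX against untransduced cells, 1056 genes, 1 member higher and 1 lower were called. Without the line term these were 1, 0 and 0, and RPL26L1 and RPL28 then had an adjusted p of 0.472 and 0.11. With trend and robust variances 2 members were lower. Leaving out single arrays gave 25 to 1080 genes, 0 to 1 members higher, 0 to 1 lower and medians of -0.139 to 0.0833. For scramble against untransduced cells, 95 genes were called, 162 with the filter at the 60th percentile, 182 with trend, 220 with trend and robust variances, 0 without the line term and 9 in the replicate block, with 3 to 90 when single arrays were left out and medians of -0.0856 to 0.131.

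Between the lines, members called higher were 2, and 1 without a filter (RPL39L at 0.059) or after quantile normalization (RPL39L at 0.0527). They were 0 at the 60th percentile, where RPL26L1 and RPL39L are not tested. Members called lower were 1, and 2 with trend, with trend and robust variances (RPL8 at 0.0417 and 0.0429) and in the replicate block (RPL22L1 at 0.0438). Leaving out single arrays gave 1 to 2 higher and 0 to 2 lower. RPL26L1 passed in all 16 alternatives that tested it, with adjusted p from 0.000912 to 0.0205. For the difference of the shTOX differences, genes called ran from 0 to 8 without single arrays, and the members' median was -0.0775 after quantile normalization. For the hairpins it ran from -0.176 to 0.0745 without single arrays.

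The labels number hairpins and name no batches. The hairpin differences of the lines correlated at 0.225 across genes, a value that cannot tell a hairpin from a batch shared by the lines. The replicate block left the 2 calls against untransduced cells in place. The cause of these shifts was not tested. Values near 5.18 lie close to the level used for testing and may be limited by background, which was not measured.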
